A study of Mus musculus with 8 samples.

Results

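The enzymes of amino acid catabolism and of the urea cycle were examined in the liver of Cic-L-/- mice and of wildtype mice. The set held 51 genes chosen by symbol, 8 of the urea cycle and its carriers and 43 of amino acid breakdown, out of 16593 gene symbols that the array annotation names. Total RNA from the livers of 18-day-old mice, labelled as strain C57BL in both groups, was hybridised with 1 single-colour Illumina bead array for each of 8 samples. The 4 Cic-L-/- samples are labelled as homozygous for loss of the long form of Cic, which encodes the transcriptional repressor capicua, and the 4 wildtype samples serve as their controls. The sources used here do not say how the allele was made or whether a sample is 1 animal or a pool. Each p-value therefore rests on the variation among these samples alone, some of which may be technical.

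The liver breaks down most amino acids that the diet and muscle release. Transaminases and dehydrogenases strip off the amino group, the carbon skeletons feed gluconeogenesis, ketone body formation or the citric acid cycle, and the urea cycle turns the freed ammonia into urea for excretion. The enzymes are made mainly by hepatocytes, largely those near the portal vein, and many of the genes are induced by glucagon and glucocorticoids and around birth and weaning.

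Of the 51 genes, 45 had at least 1 probe that the annotation names, with 59 probes in all, and Mut was found under its current symbol Mmut. For Gls2, Hgd, Acmsd, Amdhd1, Sds and Mccc2 no probe is named in that annotation. A probe counted as above background where its signal exceeded at least 95% of the control rows. The probes of Tat, Amt, Gcsh and Mut stayed below that level on too many arrays to be kept, and 41 genes were tested. Signals are given as log2 values after background correction and quantile normalisation. The brightest member probe read at most 28327 units in the deposited signal table, while the brightest row of each array read at least 51545, so no member was near the top of the scale.

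Between 38.7% and 43.5% of probes were above background on an array. The background itself differed by genotype, with control row medians of 138.5 to 141.9 units on Cic-L-/- arrays and 114.2 to 136.3 units on wildtype arrays. The single Cic probe was above background on 0 of the 8 arrays and lay between 4.33 and 4.58 in Cic-L-/- samples and between 4.45 and 4.88 in wildtype samples, so it could not check the genotype. The hepatocyte markers Tf and Ahsg were bright in both groups, Tf at 15.28 ± 0.08 in Cic-L-/- samples, against 15.27 ± 0.10 in wildtype samples, and Ahsg at 15.77 ± 0.13 in Cic-L-/- samples, against 15.86 ± 0.04 in wildtype samples (SD, n = 4). Ahsg was at the top of the scale, as the brightest row on Cic-L-/- replicate 4 (66664 units) and on wildtype replicate 4 (59415 units). The Alb probe was dim, with 5.33 ± 0.51 for Cic-L-/- samples and 6.01 ± 0.54 for wildtype samples. Ttr, another hepatocyte marker, had 14.80, 14.83, 14.26 and 14.58 in Cic-L-/- samples, against 13.87, 14.35, 14.11 and 13.97 in wildtype samples, with overlap. Of the 6 hepatocyte markers tested, 4 had a positive and 2 a negative sign. The bile duct marker Krt19, the kidney markers Umod, Slc22a6 and Slc34a1 and the muscle markers Acta1, Ckm and Myh4 were above background on 0 of the 8 arrays. The sums of the neutrophil, the Kupffer cell and macrophage and the lymphocyte lists were higher on every Cic-L-/- array than on any wildtype array. Per Cic-L-/- array 7 neutrophil genes summed to 3531 to 5145 signal units, per wildtype array to 2197 to 2689, and 3 of 7 were called higher. Kupffer cell and macrophage genes (6 with a probe) summed to 2697 to 5472 per Cic-L-/- array and 2124 to 2471 per wildtype array, and 2 of 5 tested were called higher. Cic-L-/- replicates 1 and 2 were the highest. Vsig4 had 11.10, 11.18, 10.19 and 9.92 on the Cic-L-/- arrays, against 9.88 to 10.25 on the wildtype arrays. Marco had 8.84, 9.19, 5.88 and 7.04, against 4.81 to 5.66. Clec4f was more even, with 9.94, 10.12, 9.83 and 9.87, against 9.59 to 9.78. Lymphocyte genes (6 with a probe) summed to 345.6 to 548.5 per Cic-L-/- array and 289.2 to 343 per wildtype array, and 1 of 4 tested, Cd79a, was called higher. Pancreas genes (3 with a probe) had sums that overlapped, 222.6 to 326 per Cic-L-/- array and 299.9 to 556 per wildtype array. Of these 0 of 2 tested were called, with Cpa1 below background on all 8 arrays and Amy2a5 at a difference of -1.04 ± 0.30 (adjusted p = 0.0569, limma). The hepatocyte list summed to 155300 to 160600 per Cic-L-/- array and 144100 to 156200 per wildtype array, with 0 of 6 called by limma (2 at an unadjusted p under 0.05). The part of these cells in the results below was not tested, and in bulk tissue fewer cells of a type and less RNA per cell cannot be told apart.

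In Cic-L-/- liver 3 of the 41 tested genes fell and 2 rose, all of them catabolic enzymes. Proline dehydrogenase Prodh fell 8.79-fold, alanine aminotransferase Gpt 3.12-fold and kynureninase Kynu 1.80-fold. Cysteine sulfinic acid decarboxylase Csad rose 1.88-fold and urocanate hydratase Uroc1 1.77-fold. None of the 8 urea cycle genes passed on its brightest probe. Calls are at an adjusted p under 0.05 by limma over 8255 features, of which 7.39% were called, 2.90% as lower and 4.49% as higher. Of the members 12.2% were called. The members were chosen with earlier results of these data known. Their shares, here and below, are therefore not an independent comparison with all features. Among the 2064 brightest features 8.67% were called, and 3 of the 24 members among them. The differences of 31 of the 41 members (75.6%) had a negative sign, against 49.6% of all features. The median log2 difference was -0.26 for the members, -0.29 for the urea cycle genes, -0.19 for the catabolic enzymes and 0.00 for all features. For 15 of the 41 the values of the groups did not overlap, 11 lower and 4 higher, against 15.1% of all features, and 17 had an unadjusted p under 0.05, against 22.5% of all features. Without background correction, that is on the authors' deposited log2 values, 11 members were called in place of 5, and with a mean-variance trend also 11.

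**Figure D1:**
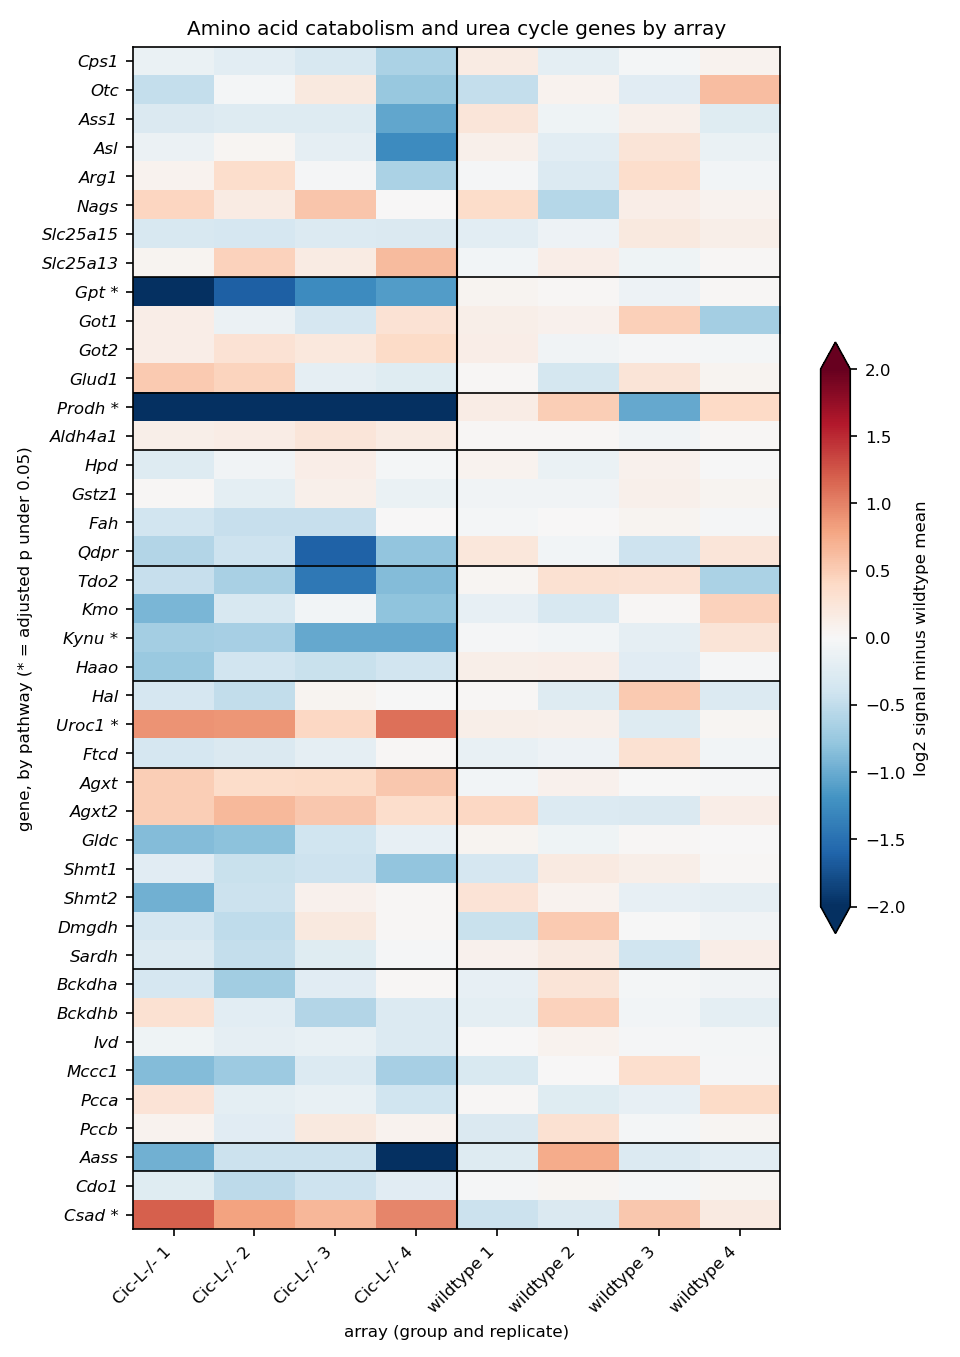
Each row is 1 of the 41 tested genes, grouped by pathway, and each column 1 array, with the 4 Cic-L-/- arrays left of the 4 wildtype arrays. Colour is the log2 signal minus the wildtype mean of that gene, with values beyond 2 in either direction drawn at the end of the scale. Prodh is at that end on 4 of 4 Cic-L-/- arrays, Gpt is lower on all 4, and Uroc1 and Csad are higher on all 4.

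Proline breakdown held the largest difference of the set. Prodh, the mitochondrial enzyme that starts proline oxidation, had log2 signals of 5.53, 5.59, 5.71 and 5.11 on the Cic-L-/- arrays, against 8.76, 9.11, 7.60 and 9.02 on the wildtype arrays. The groups did not overlap, and the lowest wildtype value, of replicate 3, was still well above every Cic-L-/- value. In the deposited signal table the same probe read 181, 176, 175 and 161 units in Cic-L-/- liver, against 536, 588, 304 and 541 units in wildtype liver. It was above background on 3 of the 4 Cic-L-/- arrays and on 4 of 4 wildtype arrays, so the size of the fall is approximate. The log2 difference was -3.14 ± 0.30 (SE, 95% interval -3.78 to -2.49, adjusted p = 8.99e-05, limma), the 13th lowest of 8255 features. On the authors' deposited log2 scale, which keeps the background, it was -1.69. The next enzyme, Aldh4a1, which oxidises the product of Prodh to glutamate, had 14.51, 14.54, 14.64 and 14.56 in Cic-L-/- liver, against 14.42, 14.42, 14.33 and 14.42 in wildtype liver. Those groups did not overlap either, but the difference of 0.17 ± 0.13 did not pass (95% interval -0.11 to 0.44, adjusted p = 0.487).

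Promoter windows were read for the members to look for the octamer that CIC binds. The windows come from RefSeq on build GRCm38.p6 and run from 250 bases before to 50 after a gene's start. Those of Prodh, with the largest fall, and of Uroc1, with the firmer of the 2 rises, are shown 5′ to 3′, with the first 50 transcribed bases in capitals. The Prodh window lies on the minus strand at chr16:18089141-18089440 and the Uroc1 window on the plus strand at chr6:90333039-90333338.
Prodh: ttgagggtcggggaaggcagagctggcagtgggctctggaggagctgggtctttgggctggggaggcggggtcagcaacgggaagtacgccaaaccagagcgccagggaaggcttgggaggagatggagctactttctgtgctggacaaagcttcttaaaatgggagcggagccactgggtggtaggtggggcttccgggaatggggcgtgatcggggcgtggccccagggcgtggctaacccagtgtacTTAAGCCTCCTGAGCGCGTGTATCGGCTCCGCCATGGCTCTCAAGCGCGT
Uroc1: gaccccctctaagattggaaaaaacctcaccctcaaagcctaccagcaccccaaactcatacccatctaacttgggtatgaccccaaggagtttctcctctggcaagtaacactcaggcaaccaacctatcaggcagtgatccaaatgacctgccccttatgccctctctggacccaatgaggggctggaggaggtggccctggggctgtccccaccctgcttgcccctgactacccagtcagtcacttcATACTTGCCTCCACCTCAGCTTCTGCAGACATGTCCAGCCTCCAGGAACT
The octamer was searched as TGAATGAA, TGAATGGA, TCAATGAA and TCAATGGA on both strands, together with the cyclic AMP response element TGACGTCA and the C/EBP core TTGCGCAA. No motif contains another. The octamer was in 3.84% of the 32851 windows in the table, TGACGTCA in 1.79% and TTGCGCAA in 0.183%. Of 48 windows of 42 members, 2 held the octamer, that of Acmsd, for which no probe is named, and 1 of Bckdhb, which did not pass. The other motifs were in 0 of the 48. The windows of Prodh and Uroc1 and both windows of Csad held none of these letters, and no window of Gpt or Kynu was available.

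Among the enzymes that move or free amino groups, 1 of 4 tested fell, against 2.90% of all features. Counts within a pathway, here and below, rest on few genes. Gpt, the cytosolic alanine aminotransferase that links alanine to pyruvate, had log2 signals of 8.26, 9.20, 9.57 and 9.71 in Cic-L-/- liver, against 10.87, 10.85, 10.73 and 10.85 in wildtype liver. Every Cic-L-/- value was below every wildtype value, and the Cic-L-/- arrays spread more widely (SD 0.65, against 0.06 in wildtype liver, n = 4 each). The log2 difference was -1.64 ± 0.27 (SE, 95% interval -2.22 to -1.06, adjusted p = 0.00433, limma). Gpt2, the mitochondrial form, which is not a member but was on a list of related genes, fell 3.44-fold, with 8.23, 8.15, 7.89 and 8.46 in Cic-L-/- liver, against 9.59, 9.87, 10.35 and 10.06 in wildtype liver (difference -1.78 ± 0.19, adjusted p = 2.17e-04). Whether the probes of these paralogs cross-hybridise was not tested. The aspartate aminotransferases did not pass, the cytosolic Got1 with a difference of -0.01 (95% interval -0.52 to 0.51) and the mitochondrial Got2 with 0.25 (-0.04 to 0.55). Glutamate dehydrogenase Glud1, which releases ammonia from glutamate, differed by 0.14 (-0.32 to 0.61).

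**Figure D2:**
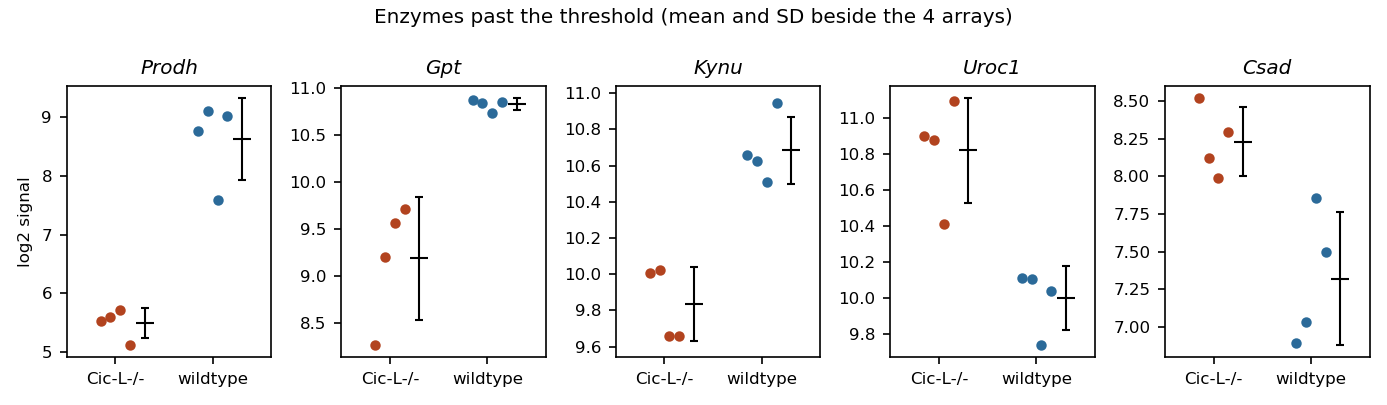
Log2 signal of the 5 called enzymes, with 1 point per array, Cic-L-/- left of wildtype, and the mean and SD of each group beside its points (n = 4). The vertical scale is log2, differs between panels and does not start at 0. In all 5 panels the points of the 2 groups do not overlap.

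In tryptophan breakdown 1 of 4 tested genes fell, against 2.90% of all features. All 4 had a negative sign, against 49.6% of all features. Kynu, which cleaves kynurenine and 3-hydroxykynurenine, had 10.00, 10.03, 9.66 and 9.66 in Cic-L-/- liver, against 10.66, 10.62, 10.51 and 10.95 in wildtype liver. Their ranges were separate, and the log2 difference was -0.85 ± 0.16 (SE, 95% interval -1.20 to -0.50, adjusted p = 0.00953, limma). Tdo2, the heme dioxygenase that opens the pathway, had 8.09, 7.89, 7.11 and 7.68 in Cic-L-/- liver, against 8.58, 8.85, 8.83 and 7.91 in wildtype liver. Wildtype replicate 4 lay within the Cic-L-/- range, and the difference of -0.85 ± 0.25 did not pass (adjusted p = 0.0654). Haao, which acts after Kynu, had 10.85, 11.21, 11.13 and 11.21 in Cic-L-/- liver, against 11.70, 11.72, 11.36 and 11.56 in wildtype liver. These did not overlap, and the difference of -0.49 ± 0.15 did not pass (adjusted p = 0.0779). Kmo, the kynurenine hydroxylase, differed by -0.53 ± 0.23 (adjusted p = 0.195). Tdo2 and Haao passed without background correction (adjusted p = 0.0490 for Tdo2 and 0.0201 for Haao) and with a mean-variance trend. Averaged over the 4 genes, the log2 deviation from the wildtype mean was -0.70, -0.50, -0.74 and -0.77 in the Cic-L-/- samples and -0.02 to 0.02 in the wildtype samples, whose mean is 0 by construction.

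The other enzymes of this pathway came from the list of related genes. Kyat3, an aminotransferase that turns kynurenine into kynurenic acid, rose 1.94-fold, with 11.23, 11.17, 10.87 and 10.41 in Cic-L-/- liver, against 9.75, 9.64, 10.35 and 10.11 in wildtype liver. These values did not overlap, though Cic-L-/- replicate 4 was close to wildtype replicate 3, and the difference was 0.96 ± 0.22 (adjusted p = 0.0232, limma). A further Kyat3 probe differed by 1.04 (adjusted p = 0.0152 over all kept probes). Kyat3 no longer passed when replicate 1 or 2 of either genotype was left out, or with the replicate number as a block (highest adjusted p = 0.0724). Kyat1, which catalyses the same step, differed in the opposite direction, by -0.47 (adjusted p = 0.147). Its other probe differed by -0.61 ± 0.17 (adjusted p = 0.0561 over all kept probes) and passed on the deposited log2 values (adjusted p = 0.0190 over all kept probes). On both Kyat1 probes the groups were separate by a narrow margin. Aadat, a further aminotransferase of this step, was dim and differed by 0.49 (adjusted p = 0.194 over all kept probes, limma). Its groups were separate by a narrow margin, at least 5.52 in Cic-L-/- samples and at most 5.49 in wildtype samples. The probe of Ido2, also on the list, was too close to background to be kept. Afmid, which acts between Tdo2 and Kmo, differed by 0.12 (adjusted p = 0.705), and Qprt, which leads on to NAD, by 0.26 (adjusted p = 0.326).

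**Figure D3:**
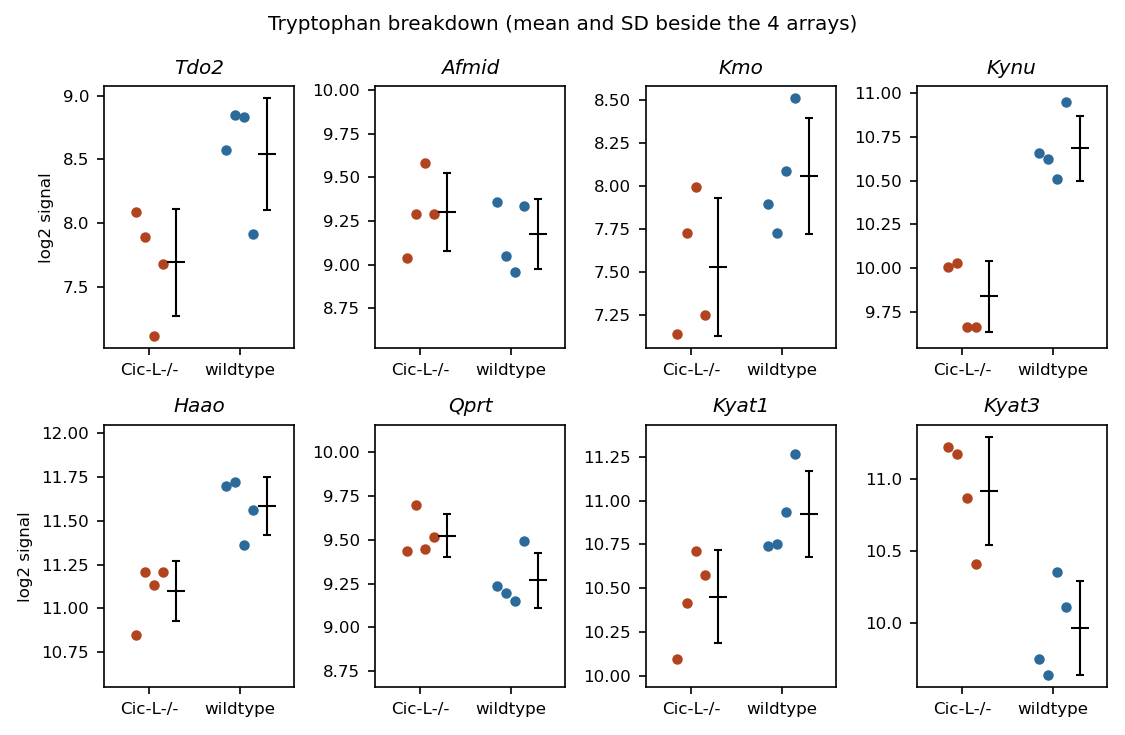
Log2 signal of 8 genes of tryptophan breakdown, with 1 point per array, Cic-L-/- left of wildtype, and the mean and SD of each group beside its points (n = 4). The vertical scale is log2, differs between panels and does not start at 0. Kynu, Haao and, narrowly, Kyat1 lie lower and Kyat3 higher on 4 of 4 Cic-L-/- arrays, while Afmid overlaps between the groups.

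In histidine breakdown 1 of 3 tested genes rose, against 4.49% of all features. Uroc1, which hydrates urocanate in the second step of the pathway, had 10.90, 10.87, 10.41 and 11.09 in Cic-L-/- liver, against 10.11, 10.10, 9.74 and 10.04 in wildtype liver. All 4 Cic-L-/- values were above all 4 wildtype values, and the log2 difference was 0.82 ± 0.17 (SE, 95% interval 0.44 to 1.20, adjusted p = 0.0164, limma). Amdhd1, which acts next, could not be tested, and the other enzymes did not pass. Histidase Hal, which makes urocanate, differed by -0.19 (95% interval -0.64 to 0.26), and Ftcd, which hands the last carbon to folate, by -0.19 (-0.54 to 0.15).

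The enzymes of cysteine breakdown lead through cysteine sulfinate to taurine, with which mouse bile acids are conjugated. Csad, which decarboxylates cysteine sulfinate, had 8.52, 8.12, 7.99 and 8.29 in Cic-L-/- liver, against 6.89, 7.03, 7.85 and 7.50 in wildtype liver. Separation was narrow, between Cic-L-/- replicate 3 and wildtype replicate 3. The log2 difference was 0.91 ± 0.22 (SE, 95% interval 0.43 to 1.39, adjusted p = 0.0281, limma). Csad no longer passed when replicate 1 or 2 of either genotype or Cic-L-/- replicate 4 was left out, when dim probes were kept or when the replicate number was a block (highest adjusted p = 0.0817). Cdo1, the dioxygenase that makes cysteine sulfinate, had 14.21, 13.93, 14.04 and 14.24 in Cic-L-/- liver, against 14.43, 14.49, 14.42 and 14.49 in wildtype liver. Its groups did not overlap in the opposite direction, and the difference of -0.35 ± 0.14 did not pass (adjusted p = 0.149), though it passed without background correction (adjusted p = 0.0287).

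None of the 8 urea cycle genes was called by limma on its brightest probe. With 7.39% of all features called, 0 of 8 does not set these genes apart. Of the 8 genes 1, Ass1, had an unadjusted p under 0.05, against 22.5% of all features. The median log2 difference of the 8 was -0.29, against -0.19 for the 33 tested catabolic enzymes and 0.00 over all features. A negative sign was held by 6 of the 8, against 75.8% of the catabolic enzymes and 49.6% of all features. Carbamoyl phosphate synthetase Cps1, the entry enzyme, had 13.94, 13.86, 13.76 and 13.44 in Cic-L-/- liver, against 14.24, 13.87, 14.04 and 14.15 in wildtype liver, which overlapped only marginally (difference -0.33 ± 0.16, adjusted p = 0.251). Its other probe had 12.78, 12.81, 12.90 and 12.40 in Cic-L-/- samples, against 13.32, 13.62, 13.13 and 13.26 in wildtype samples, with no overlap. It differed by -0.61 ± 0.17 (adjusted p = 0.0565 over all kept probes), and it passed on the deposited log2 values, with a difference of -0.60 (adjusted p = 0.0159 over all kept probes). Nags, whose product N-acetylglutamate activates that enzyme, was dim, with 5.59, 5.32, 5.71 and 5.17 in Cic-L-/- liver, against 5.52, 4.59, 5.29 and 5.23 in wildtype liver (difference 0.29 ± 0.21, adjusted p = 0.458). Ornithine transcarbamylase Otc, which makes citrulline, overlapped widely, with 7.56, 7.98, 8.22 and 7.27 in Cic-L-/- liver, against 7.55, 8.10, 7.81 and 8.65 in wildtype liver (difference -0.27 ± 0.26, adjusted p = 0.588).

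In the cytosolic steps Cic-L-/- replicate 4 gave the lowest value for each enzyme. Argininosuccinate synthetase Ass1 had 13.37, 13.41, 13.40 and 12.63 in Cic-L-/- liver, against 13.90, 13.58, 13.76 and 13.42 in wildtype liver. The groups did not overlap, but the gap to wildtype replicate 4 was narrow and Cic-L-/- replicate 4 stood apart (difference -0.46 ± 0.20, adjusted p = 0.201). Argininosuccinate lyase Asl had 8.75, 8.91, 8.68 and 7.61 in Cic-L-/- liver, against 8.97, 8.66, 9.13 and 8.74 in wildtype liver (difference -0.38 ± 0.26, adjusted p = 0.424). Arginase Arg1, which releases urea, had 12.81, 13.10, 12.72 and 12.11 in Cic-L-/- liver, against 12.71, 12.47, 13.09 and 12.69 in wildtype liver (difference -0.05 ± 0.22, adjusted p = 0.917). The values of these Asl and Arg1 probes overlapped between genotypes. The other Asl probe reached at most 8.61 in Cic-L-/- samples and was at least 8.62 in wildtype samples. Those ranges were separate by a narrow margin, and the difference of -0.71 ± 0.22 did not pass (adjusted p = 0.0811 over all kept probes). Over the 8 genes the mean log2 deviation from wildtype was -0.10, 0.02, -0.02 and -0.50 in the Cic-L-/- samples, and -0.16 to 0.08 in the wildtype samples. Without Cic-L-/- replicate 4 the median difference of the 8 genes was -0.10.

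The mitochondrial carriers of the cycle differed in opposite directions. Slc25a15, which exchanges ornithine and citrulline, had 11.77, 11.77, 11.82 and 11.81 in Cic-L-/- liver, against 11.89, 12.00, 12.29 and 12.21 in wildtype liver. On this probe the values did not overlap, and the difference of -0.31 ± 0.14 did not pass (adjusted p = 0.228). The other Slc25a15 probe differed by -0.32 (adjusted p = 0.283 over all kept probes, limma), and its groups overlapped. Slc25a13, which exports aspartate for argininosuccinate synthesis, had 6.78, 7.19, 6.89 and 7.35 in Cic-L-/- liver, against 6.67, 6.85, 6.63 and 6.74 in wildtype liver (difference 0.33 ± 0.16, adjusted p = 0.25). It passed with median centring in place of quantile normalisation (adjusted p = 0.0448), a scaling that moved the median log2 difference of all features from 0.00 to 0.17, so that differences on it are read against 0.17. On that scaling the called features split into 134 lower and 683 higher, in place of 239 lower and 371 higher. Of the 41 members 31 lay below the median of all features on that scaling, the same number as with quantile normalisation.

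**Figure D4:**
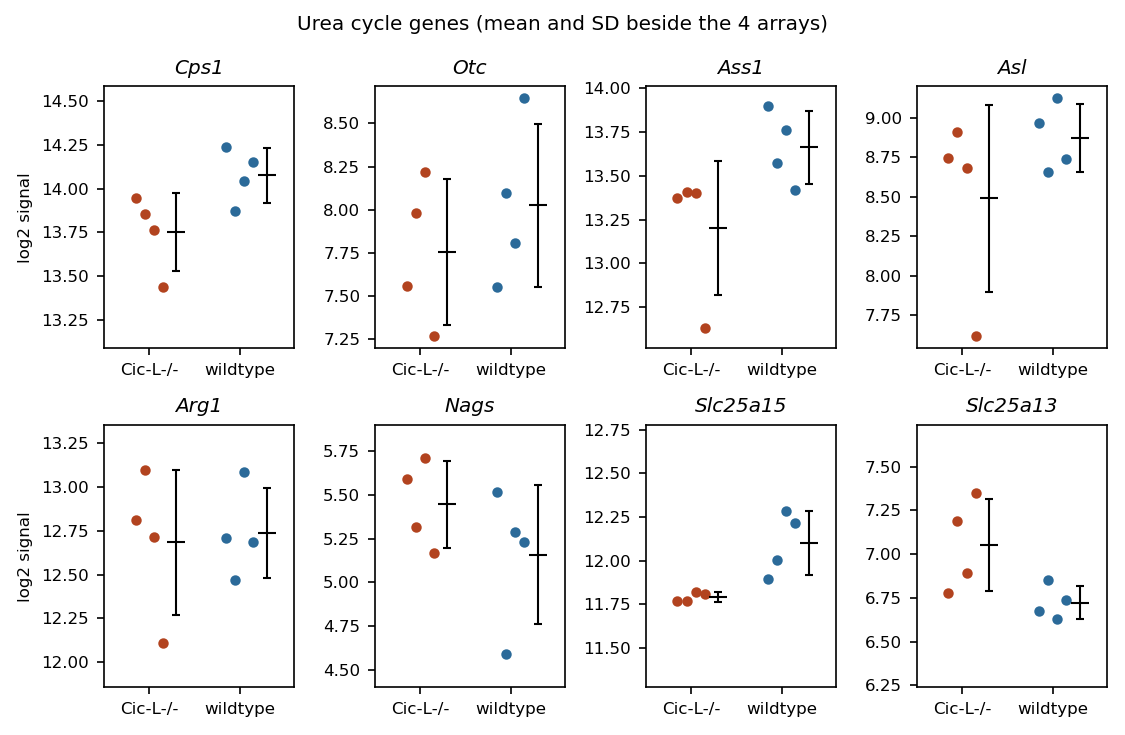
Log2 signal of the 8 urea cycle genes, with 1 point per array, Cic-L-/- left of wildtype, and the mean and SD of each group beside its points (n = 4). The vertical scale is log2, differs between panels and does not start at 0. The lowest Cic-L-/- point of Cps1, Otc, Ass1, Asl, Arg1 and Nags is that of replicate 4.

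Serine, glycine and folate enzymes did not pass in any of 7 tested genes by limma. Of the 7, 4 had an unadjusted p under 0.05, against 22.5% of all features. The glyoxylate aminotransferases had a positive sign. Agxt, the peroxisomal enzyme that disposes of glyoxylate, had 12.37, 12.26, 12.26 and 12.43 in Cic-L-/- liver, against 11.83, 11.98, 11.88 and 11.87 in wildtype liver. Every Cic-L-/- value was the higher, and the difference of 0.45 ± 0.13 fell short of the threshold (95% interval 0.16 to 0.73, adjusted p = 0.0633), though it passed in 6 of 16 alternatives. The mitochondrial Agxt2 differed by 0.51 ± 0.18 (adjusted p = 0.122), and its other probe by 0.09 (adjusted p = 0.825 over all kept probes). Gldc, the decarboxylase of the glycine cleavage system, had 12.54, 12.60, 13.01 and 13.26 in Cic-L-/- liver, against 13.47, 13.33, 13.44 and 13.43 in wildtype liver (difference -0.56 ± 0.18, adjusted p = 0.0801). Its groups did not overlap. Its other probe differed by -0.59 ± 0.14 and passed when all kept probes were tested (adjusted p = 0.0333), and Gldc was the only 1 of 9 members with several kept probes whose probes disagreed on the call in the background-corrected values. The remaining enzymes were Shmt1 (-0.47 ± 0.17, adjusted p = 0.132) and Shmt2 (-0.32 ± 0.23, adjusted p = 0.445), the cytosolic and mitochondrial serine hydroxymethyltransferases, and the choline pathway dehydrogenases Dmgdh (-0.16, adjusted p = 0.725) and Sardh (-0.26, adjusted p = 0.416).

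Tyrosine and phenylalanine enzymes did not pass either, in 0 of 4 tested genes by limma. Of the 4, 1 had an unadjusted p under 0.05, near the 22.5% of all features. Qdpr, which regenerates the tetrahydrobiopterin used by phenylalanine hydroxylase, had 8.41, 8.57, 7.37 and 8.20 in Cic-L-/- liver, against 9.21, 8.94, 8.57 and 9.23 in wildtype liver. The groups met at 8.57 without overlapping (difference -0.85 ± 0.25, adjusted p = 0.0673), and the gene passed in 4 of 16 alternatives. Fah, the last enzyme of tyrosine breakdown, differed by -0.33 ± 0.15 (adjusted p = 0.223). The dioxygenase Hpd (-0.06, 95% interval -0.37 to 0.25) and the isomerase Gstz1 (-0.05, -0.35 to 0.25) lay close to 0.

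Branched chain amino acid and propionate enzymes had 0 of 6 tested genes called by limma, and their log2 differences ran from -0.63 to 0.03. Of the 6, 1 had an unadjusted p under 0.05, against 22.5% of all features. That gene was Mccc1, a subunit of the leucine pathway carboxylase, with 6.12, 6.26, 6.71 and 6.32 in Cic-L-/- liver, against 6.67, 6.98, 7.31 and 6.96 in wildtype liver (difference -0.63 ± 0.18, adjusted p = 0.0581). Its groups overlapped at a single pair of arrays, and the gene passed in 3 of 16 alternatives. On the deposited log2 values, which keep the background, the Mccc1 difference was -0.29, so its size is approximate. The subunits of the branched chain dehydrogenase, Bckdha (-0.31, adjusted p = 0.333) and Bckdhb (-0.19, adjusted p = 0.646), and isovaleryl-CoA dehydrogenase Ivd (-0.17, adjusted p = 0.47) followed. Bckdha is the 13th protein-coding gene from Cic on chromosome 7, by the gene order of GRCm38.p6. The propionyl-CoA carboxylase subunits Pcca (-0.12, 95% interval -0.54 to 0.30) and Pccb (0.03, -0.34 to 0.39) lay closest to 0. Aass, the first enzyme of lysine breakdown, had 6.77, 7.31, 7.30 and 5.50 in Cic-L-/- liver, against 7.48, 8.48, 7.45 and 7.52 in wildtype liver. These ranges were separate but their spread was wide (difference -1.01 ± 0.38, adjusted p = 0.136), and a dimmer Aass probe differed by 0.39 ± 0.22 in the opposite direction (adjusted p = 0.333 over all kept probes).

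**Figure D5:**
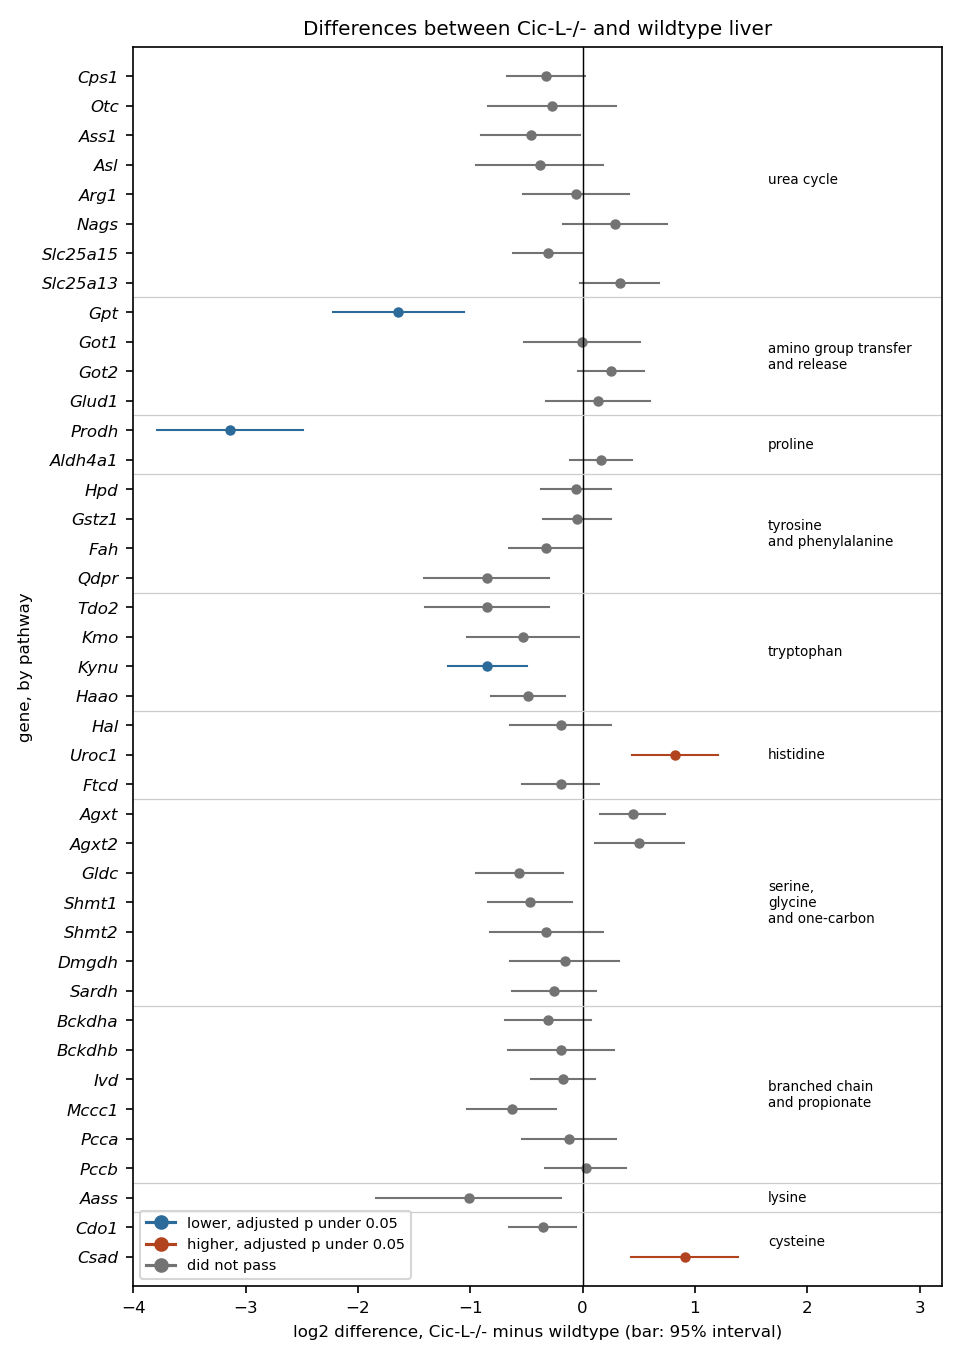
Log2 difference, Cic-L-/- minus wildtype, of each of the 41 tested genes with its 95% interval from limma (n = 4 arrays per group), grouped by pathway. Prodh at -3.14 and Gpt at -1.64 lie furthest from 0, the urea cycle genes lie between -0.46 and 0.33, and 3 genes in blue fell and 2 in red rose.

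Of 67 related genes that are not members, 47 were tested, 7 fell and 2 rose, which is 19.1% called, against 7.39% of all features. This list was chosen with earlier results of these data known, so its shares are not an independent comparison with all features. Among 33 tested enzymes 3 fell and 2 rose. Beside Gpt2 and Kyat3 these were Acadsb, a dehydrogenase of isoleucine breakdown (-0.85 ± 0.21, adjusted p = 0.0319), Gnmt, the glycine methyltransferase (-0.58 ± 0.14, adjusted p = 0.0325), and Ppm1k, the phosphatase that activates the branched chain dehydrogenase. Ppm1k had 11.39, 11.22, 11.39 and 11.57 in Cic-L-/- liver, against 10.44, 10.71, 10.87 and 10.61 in wildtype liver, a rise of 0.74 ± 0.15 (adjusted p = 0.0136, limma). Of 7 tested carriers 2 fell. The neutral amino acid transporter Slc38a2 had 10.16, 9.92, 10.51 and 10.51 in Cic-L-/- liver, against 11.47, 11.58, 11.27 and 10.97 in wildtype liver (-1.05 ± 0.19, adjusted p = 0.00749). The aromatic amino acid transporter Slc16a10 fell by 0.87 ± 0.23 (adjusted p = 0.0406). On the deposited log2 values, which keep the background, the Slc16a10 difference was -0.40.

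Among regulators, 2 of 7 tested fell, against 2.90% of all features. A negative sign was held by 7 of 7, against 49.6% of all features. These genes belong to the list chosen with earlier results known, so neither comparison is independent of these data. The glucagon receptor Gcgr had 6.15, 6.25, 6.13 and 6.29 in Cic-L-/- liver, against 7.01, 7.37, 6.62 and 6.91 in wildtype liver (-0.77 ± 0.17, adjusted p = 0.019, limma). On the deposited log2 values, which keep the background, the Gcgr difference was -0.36, so its size is approximate. The transcription factor Cebpb had 11.34, 11.42, 10.67 and 11.26 in Cic-L-/- liver, against 12.16, 11.96, 12.11 and 11.85 in wildtype liver (-0.85 ± 0.18, adjusted p = 0.017). Leaving out replicate 1 or 2 of either genotype left 5 related genes called in place of 9. The calls of Acadsb, Gnmt and Slc16a10 each ended in 8 or 9 of 16 alternatives (highest adjusted p = 0.109), Gcgr ended in 2 and Cebpb in 1.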

How the data were processed

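The authors deposited a signal table of linear intensity values for 25697 probes and 1124 rows with an array address only, and a table of log2 values. The sources used here name no scanner or bead software. Quantile normalisation of log2 of the deposited signal gave the deposited log2 values to within 5e-05, so these carry no background subtraction, and the series matrix differed from them by 0.

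The 1124 rows were taken as negative controls, a reading of their values. Background was corrected with normexp (limma 3.58.1 under R 4.3.3, offset 16), and the log2 values were then quantile-normalised. A probe was kept where it exceeded 95% of the controls on 4 or more arrays, which left 10300. Each gene was represented by its brightest kept probe, which gave 8255 features. Genes were named from the platform annotation, and older symbols were matched through RefSeq's gene table (GRCm38.p6), used for names and gene order. Groups were compared with limma (lmFit and eBayes, two-sided), with Benjamini-Hochberg adjustment over all features, and the fit was tested on simulated data. The number of arrays limits the precision. The members, lists and tests were chosen with earlier results of these data known. All members are named, with array values for called members and urea cycle genes; of related genes the called ones are named. Array values of other members, and related genes that did not pass, were added after their values were seen.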

Additional observations from a re-analysis of the deposited data

Results flagged for a closer look

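In 4 of 82 groups of 4 arrays, 1 array stood far from the other 3, where chance alone would do so in about 5% of groups. Ass1 was at 12.63 in Cic-L-/- replicate 4, against 13.37 to 13.41 in the other Cic-L-/- samples. Fah was at 13.81 in Cic-L-/- replicate 4, within the wildtype range, against 13.35 to 13.43 in the other Cic-L-/- samples. Aass was at 8.48 in wildtype replicate 2, against 7.45 to 7.52 in the other wildtype samples. Aldh4a1 was at 14.33 in wildtype replicate 3, while the other wildtype samples shared the value 14.42, which quantile normalisation gives to probes of equal rank.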

How the results depend on the processing

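Of the 5 called members, Gpt, Kynu and Uroc1 passed in all 16 alternatives and Prodh in the 15 that tested it (it was not above background on all 8 arrays), while Csad passed in 9. The highest adjusted p was 0.000773 for Prodh, 0.0163 for Gpt, 0.0304 for Kynu and 0.0486 for Uroc1. No called difference changed sign. The fold of Prodh depends on the background: its log2 difference was -1.69 without correction and -3.14 with it. Of the catabolic enzymes 5 were called, 11 without background correction, 11 with a variance trend and 10 with a normexp offset of 50, chosen after seeing the data, and these were also the counts over all members. Of the urea cycle genes, each on its brightest probe, 1 was called with median centring (Slc25a13) and 0 in every other alternative, while a second Cps1 probe passed on the deposited values (adjusted p = 0.0159). Leaving out 1 array at a time gave 4 to 6 called catabolic enzymes, the same range over all members, 0 to 0 urea cycle genes, 5 to 7 related genes and 341 to 612 features in place of 610. The count of features fell by over 1.5 times, to 343 and 341 when Cic-L-/- replicate 1 or 2 was the sample left out, and to 375, 372 and 380 for replicates 1, 2 and 4 of wildtype. Samples share replicate numbers only: deviations of same-numbered samples correlated at -0.03 to 0.05 across features, which are not independent. With the replicate number as a block 6 catabolic enzymes, 6 related genes and 468 features were called. Dim probes such as those of Nags and Prodh limit what sizes can be read, and 10 of the 51 genes could not be tested.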

Other observations

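Of the 33 related enzymes tested, 15 had a positive and 18 a negative sign. Some of those with higher values in Cic-L-/- liver that did not pass the threshold in limma are described here. In the opposite direction, Nit2 differed by -0.48 (adjusted p = 0.0781 over all kept probes, limma). It reached at most 9.12 in Cic-L-/- samples and was at least 9.27 in wildtype samples. Ornithine aminotransferase Oat, which links ornithine to proline and glutamate, had 12.83, 12.56, 11.66 and 11.64 in Cic-L-/- liver, against 11.55, 11.44, 10.63 and 11.62 in wildtype liver. The groups did not overlap, by the margin between 11.64 and 11.62 (difference 0.86 ± 0.30, adjusted p = 0.118). Upb1, which ends pyrimidine breakdown, had 12.02, 12.16, 12.11 and 12.18 in Cic-L-/- liver, against 11.56, 11.74, 11.83 and 11.38 in wildtype liver (difference 0.49 ± 0.15, adjusted p = 0.0674). A further Upb1 probe passed when all kept probes were tested (difference 0.57, adjusted p = 0.044).

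The glyoxylate enzymes that work beside Agxt had positive signs. Hao1, which makes glyoxylate from glycolate, differed by 0.37 ± 0.16 (adjusted p = 0.194), Grhpr, which reduces glyoxylate, by 0.31 ± 0.15 (adjusted p = 0.244) and Hoga1, which forms glyoxylate from hydroxyproline, by 0.39 ± 0.14 (adjusted p = 0.139). Prodh2, the hydroxyproline dehydrogenase related to Prodh, differed by 0.08 (95% interval -0.21 to 0.37, adjusted p = 0.772), and its 2 other probes by 0.30 each. The bright Gnmt probe fell by 0.58 while a further probe differed by 0.41 ± 0.38 (adjusted p = 0.58 over all kept probes). These genes were chosen for description after their values were seen.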
